A study of Mus musculus with 6 samples.

Results

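The genes described here are the AP-1 genes Fos, Fosb, Fosl1, Fosl2, Jun, Junb and Jund, the early growth response genes Egr1 and Egr2, and the early response gene Ier3. They were taken by symbol from the deposited count table, which listed 34745 genes, and all 10 were found once each. RNA sequencing was carried out on wild-type mouse bone marrow-derived macrophages, primary cells grown from bone marrow in M-CSF at 20 ng/ml. Every culture was stimulated for 6 h with R848 (100 ng/ml), a small-molecule agonist of the endosomal Toll-like receptors that sense single-stranded RNA. Before that, 3 samples had received the solvent DMSO and 3 a KAT8 inhibitor, whose name, dose and time of addition the labels do not give. KAT8 is an acetyltransferase that modifies histone H4. Neither unstimulated cells nor cells given the inhibitor alone were analysed here, so each difference is one between stimulated cultures at a single time. The labels do not say that replicates were separate animals or cultures, and p-values therefore measure only library-to-library spread, which may be technical.

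AP-1 is a dimer of basic leucine zipper (bZIP) proteins. JUN proteins pair with each other or with FOS proteins, whereas FOS proteins need a JUN partner to bind DNA. EGR proteins are zinc finger factors that bind GC-rich sites. Signals from Toll-like receptors reach these genes through the ERK, JNK and p38 MAP kinases, which act on serum response factor, its ternary complex partners and factors bound at cyclic AMP response elements. Transcripts such as Fos and Egr1 appear quickly after a stimulus and decline soon afterwards, while Fosl1, Fosl2 and Jund are commonly expressed for longer. Ier3 encodes a small protein of the survival and NF-kB response and is not a transcription factor of either family.

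Promoter sequences are shown for Fos and Ier3, which rose, and for Jun and Egr2, which did not pass the test. Egr2 passed it when inhibitor replicate 3 was left out, so it is no clear contrast to the genes that rose. The sequences come from RefSeq on build GRCm38.p6, which held entries for 8 of the 10 genes. It held none for Fosl1 and Egr1, which also rose. Sequences are written 5′ to 3′ on the strand of the gene. The Fos sequence is chr12:85473640-85473889 (plus strand), the 250 bases before the start. That of Ier3 is chr17:35821463-35821683 (plus strand), which ends 30 bases before the RefSeq start because the annotated exon begins there. Jun is given as chr4:95052223-95052472 (minus strand), and for Egr2 only 30 bases around its elements are given, chr10:67537793-67537822 (plus strand). Capitals mark matches to the motifs searched.
Fos: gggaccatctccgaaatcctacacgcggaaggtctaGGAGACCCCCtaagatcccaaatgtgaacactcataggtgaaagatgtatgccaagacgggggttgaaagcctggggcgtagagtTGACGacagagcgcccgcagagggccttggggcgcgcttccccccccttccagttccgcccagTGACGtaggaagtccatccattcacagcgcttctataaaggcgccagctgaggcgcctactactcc
Ier3: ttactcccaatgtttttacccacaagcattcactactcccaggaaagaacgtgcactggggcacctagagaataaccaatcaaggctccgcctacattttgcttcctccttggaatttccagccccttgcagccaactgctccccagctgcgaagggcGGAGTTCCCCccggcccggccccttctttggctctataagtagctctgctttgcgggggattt
Jun: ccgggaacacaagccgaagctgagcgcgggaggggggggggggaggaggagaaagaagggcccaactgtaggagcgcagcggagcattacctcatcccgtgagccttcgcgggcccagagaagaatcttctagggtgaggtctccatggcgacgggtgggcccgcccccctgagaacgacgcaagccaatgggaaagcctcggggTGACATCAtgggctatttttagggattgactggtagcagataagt
Egr2: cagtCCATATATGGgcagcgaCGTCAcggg

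Motifs were searched on both strands in the 250 bases before each start. The letters TGACG, the core of the cyclic AMP response element, occurred at 2 places in Fos, beginning 129 and 66 bases before the start, and were found in 17.77% of all 32851 promoter windows. In the Egr2 stretch they occurred on the reverse strand, beside a CArG box, the binding element of serum response factor, which 1.47% of windows held. These elements precede the start at 67537869, 1 of 5 listed for Egr2, whose window held a further TGACG 111 to 107 bases before that start. Fosb and Junb also held TGACG once each. Jun held TGACATCA, the variant AP-1 site known from its promoter, 45 to 38 bases before the start, and 2.93% of windows held those letters. A kappa B match, the NF-kB element, lay in Fos and in Ier3, and 7.25% of windows had one. Windows of Fosl2 (called lower), Fosb (not tested) and another start of Egr2 (not called) had such matches too. The canonical AP-1 site TGANTCA (6.75% of windows) and the full element TGACGTCA (1.55%) were in none of the windows of the 8 genes, and GCGNGGGCG, the EGR site (4.7%), was in those of Fosl2 and Fosb. Each TGACGTCA would also count as TGACG. These are matches of letters only, and the serum response element for which Fos is best known lies further upstream than the window. The RefSeq starts of Jund and Fosl2 lie −1210 and 671 bases from the annotated gene starts (negative for upstream). The Egr2 start at 67537869 lies 2394 bases from its annotated gene start, so the printed Egr2 stretch is inside the annotated gene. The other Egr2 starts lie 24, 2091, 2395 and 2455 bases from it. The windows of Jund, of Fosl2 and of the Egr2 start at 67537869 therefore do not adjoin the annotated gene starts.

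With the inhibitor Fos, Fosl1, Egr1 and Ier3 stood higher, by 1.29-fold for Egr1 up to 2.22-fold for Fos, and Fosl2 and Jund stood lower. Of the 9 genes that passed the filter on low counts, 4 were higher (Fos, Fosl1, Egr1 and Ier3), 2 were lower (Fosl2 and Jund) and 3 were not called (Jun, Junb and Egr2) by edgeR's quasi-likelihood test at a Benjamini-Hochberg adjusted p under 0.05. Fosb did not pass the filter. Among all 13815 genes tested, 24.9% were called higher and 26.5% lower, 51.5% in all. The median log2 fold change (inhibitor over DMSO) of the 9 genes was 0.37, and that of all genes tested was 0.01. For 8 of the 10 genes the DMSO and inhibitor values did not overlap, 7 of them among the 9 tested, against 60.6% of all genes tested. Of these 7, 5 were higher (30.3% of all genes tested) and 2 lower (30.3%).

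Library totals ranged from 18441352 to 25089320 counts, and paired counts of replicates differed by a chi-square per degree of freedom of 9.09 to 14, more than sampling noise allows. Levels are TMM-scaled CPM, that is, counts relative to the effective library size. With library totals as the only scaling, the all-gene median log2 fold change was 0.12, and the calls went from 3446 higher and 3667 lower to 4888 and 2842. Of 9 stromal cell markers 7 were lower with the inhibitor (1 was higher with library totals), and their summed level was 4838 to 5682 CPM with DMSO and 2167 to 2327 CPM with the inhibitor. Collagen gene Col1a2 stood at 1701 ± 115 and 669 ± 20.2 CPM (SD, n = 3). Pdgfra (418 ± 30.3 and 442 ± 20.5 CPM) and Lum (13.2 ± 1.32 and 10.3 ± 1.82 CPM) were not called with TMM scaling. Macrophage markers were present at a summed 11860 to 13530 CPM and 7562 to 7640 CPM, with 6 of 8 lower (5 lower and 1 higher with library totals). Most of that sum was Lyz2, at 8596 ± 632 and 4190 ± 37.1 CPM (SD, n = 3). Csf1r (474 and 463 CPM on average) and Cd68 (1504 and 1673 CPM) were not called with TMM scaling. Neutrophil genes Ly6g, S100a9, Elane and Ngp were at 0 in every library, as were the T cell genes Cd3d and Cd8a. Summed levels were 6.41 to 7.16 and 2.08 to 2.93 CPM for the 8 neutrophil markers, and at most 3.2 CPM for each list of B cell, T and NK cell, mast cell and erythroid markers. The dendritic list, led by Itgax, which macrophages also express, summed to 806 to 887 and 467 to 495 CPM, with all 3 tested genes lower. Fibroblasts and macrophages both express AP-1 and EGR genes, and the part of the stromal cells in the results below was not tested. In such bulk samples fewer cells of a type and less RNA per cell cannot be told apart.

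**Figure D1:**
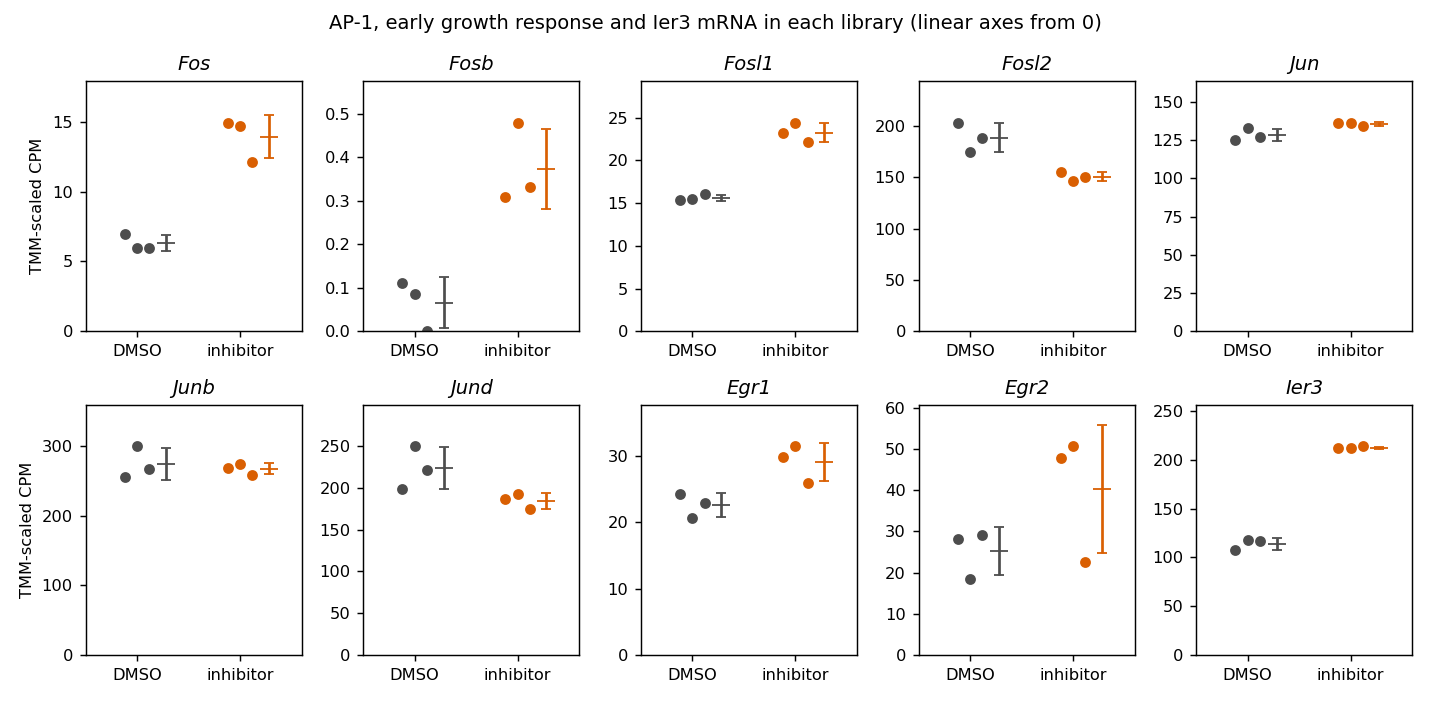
Level of each of the 10 genes in every library, in TMM-scaled CPM on linear axes from 0, with points for the 3 DMSO (grey) and 3 inhibitor (orange) libraries and bars for the mean ± SD. The groups do not overlap for 8 genes, and for Egr2 inhibitor replicate 3 lies among the DMSO libraries.

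Of the 3 FOS genes that passed the filter, Fos had the largest fold change. This gene, the founding partner of JUN in AP-1 (ENSMUSG00000021250, chromosome 12, 85473890 to 85477273, plus strand, mm10), was read 126, 139 and 136 times in the DMSO group and 388, 369 and 293 times in the inhibitor group. This gave 6.96, 6.00 and 5.93 CPM for DMSO, set against 14.9, 14.7 and 12.2 CPM for the inhibitor. The lowest inhibitor library, replicate 3, lay well above the highest DMSO library. The rise was 1.15 on the log2 scale (SE 0.12, 95% interval 0.88 to 1.42, edgeR adjusted p = 0.000102), or 2.22-fold, which stood at percentile 97.5 of all genes tested.

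Fosl1 (FRA-1), a FOS protein without the transactivation domain of FOS, rose less. Its levels were 15.4, 15.4 and 16.1 CPM with DMSO and 23.2, 24.4 and 22.2 CPM with the inhibitor, so the groups were well apart. The rise was 1.49-fold (log2 fold change 0.57, SE 0.069, edgeR adjusted p = 0.000246). Of its 2033 exon bases (ENSMUSG00000024912, chromosome 19, 5447547 to 5455946, plus strand) 1163 are shared with exons of Ccdc85b on the opposite strand, and whether counting used strand is not given in the sources used here. The counts assigned to Ccdc85b moved the other way, from 9.93 ± 0.9 to 8.04 ± 0.725 CPM (SD, n = 3), and were not called (adjusted p = 0.0505).

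Fosl2 (FRA-2), the close relative of Fosl1, fell. DMSO libraries held 203, 175 and 188 CPM of it, and inhibitor libraries 155, 146 and 150 CPM. All 3 inhibitor values lay below the lowest DMSO value. The log2 fold change was −0.33 (SE 0.059, 95% interval −0.46 to −0.19, edgeR adjusted p = 0.00217). The gene is at chromosome 5, 32135801 to 32157842, plus strand (ENSMUSG00000029135), and no exon of another gene overlaps it.

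Fosb, a FOS relative with strong transactivation, was near the limit of detection. The DMSO libraries had 2, 2 and 0 counts, the inhibitor libraries 8, 12 and 8. The summed counts, 4 and 28, gave a depth-corrected ratio of 5.99 (2.58 on the log2 scale), with an exact 95% counting interval of 2.09 to 23.5 that leaves out any spread between cultures. When no filter on low counts was applied, edgeR put the difference at 2.48 (SE 0.79, adjusted p = 0.0284) on that scale, and DESeq2 gave 2.55 (adjusted p = 0.0491).

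The JUN genes, which supply the partner that FOS proteins need, moved little. Jun stood at 125, 133 and 127 CPM with DMSO, while inhibitor libraries had 136, 136 and 134 CPM. The groups did not overlap, but they lay close together, and the log2 fold change of 0.08 (SE 0.041, 95% interval −0.01 to 0.18) did not pass (edgeR adjusted p = 0.132). With library totals Jun passed, at 0.19 (adjusted p = 0.00336). Its single exon (ENSMUSG00000052684, chromosome 4, 95049034 to 95052222, minus strand) shares 232 bases with the antisense gene Junos, which had 1.02 ± 0.28 and 0.814 ± 0.138 CPM (SD, n = 3).

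Junb, which can activate or restrain AP-1 targets depending on its partner, overlapped between the groups. DMSO libraries had 256, 299.5 and 267 CPM, inhibitor libraries 269, 274 and 259 CPM. The estimate was −0.04 (log2 scale, SE 0.061, edgeR adjusted p = 0.641), and the 95% interval of −0.18 to 0.1 bounds the difference. Its sign changed with library totals (0.07), with the trend in GC content and length removed (0.04) and without DMSO replicate 2 (0.03). Junb (chromosome 8, 84974484 to 84978718, minus strand) shares 173 exon bases with Prdx2 on the opposite strand, which stood at 123 ± 4.89 and 119.8 ± 2.92 CPM (SD, n = 3).

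Jund, the most constantly expressed JUN gene in many cell types, was lower by a small margin. It was at 199, 249.5 and 221 CPM in the DMSO group and at 186, 192 and 174 CPM in the inhibitor group. The groups came close at 199 and 192 CPM. Its log2 fold change was −0.28 (SE 0.08, 95% interval −0.46 to −0.09, edgeR adjusted p = 0.0202). The call was lost with library totals (adjusted p = 0.0774), without inhibitor replicate 3 (0.0695) and with the trend in GC content and length removed (−0.15, adjusted p = 0.155), with adjusted p from 0.00365 to 0.155 over all settings. Of its 1668 exon bases (ENSMUSG00000071076, chromosome 8, 70698949 to 70700616, plus strand) 877 overlap the opposite-strand gene Gm11175, which had 0.266 and 0.38 CPM on average.

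**Figure D2:**
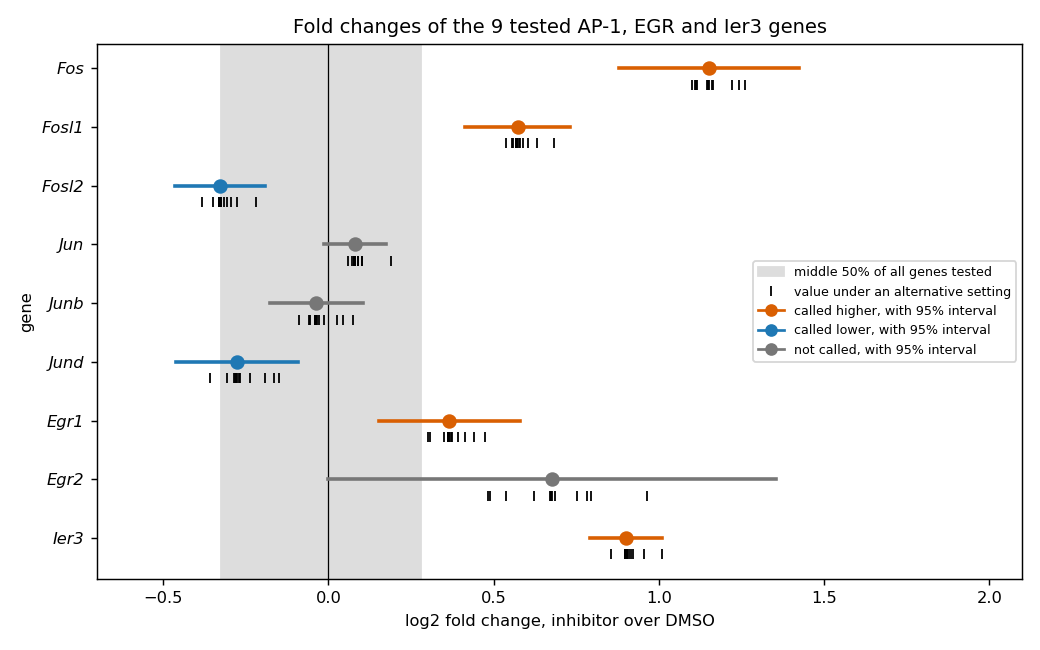
Log2 fold change (inhibitor over DMSO) of the 9 tested genes, with points for the estimate, lines for its 95% interval, ticks for the value under each alternative setting and grey for the middle 50% of all genes tested (−0.32 to 0.28). Fos, Fosl1 and Ier3 lie to the right of the grey band with their whole intervals, while Jun, Junb and Egr2 have intervals that include 0.

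The relative make-up of each family was compared per length of merged exons, a quantity that does not depend on library scaling but restates the differences above. Among the FOS genes, the share of Fosl2 was 66.5%, 64.0% and 65.1% with DMSO, as against 47.4%, 45.1% and 49.0% under the inhibitor. Fos made up 8.96% ± 0.472 with DMSO and 18.0% ± 1.4 with the inhibitor (SD, n = 3). The share of Fosl1 went from 25.8% ± 1.55 to 34.7% ± 1.11 (SD, n = 3). Fosb held 0.035% and 0.181% on average. Fosl2 was thus the leading member in all 6 libraries.

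For each of these shares the groups did not overlap, and the two-sided exact permutation test gave p = 0.1, the smallest that 3 libraries against 3 allow, which is also its value after adjustment over the 8 quantities compared. Without division by length the difference in the Fosl2 share was −9.53 in place of −18.0 percentage points, that of Fos 4.43 in place of 9.003 and that of Fosl1 4.93 in place of 8.90, as the merged exons of Fosl2 are long (9680 bases). The JUN family moved by less. Jund had 45.6% ± 1.21 and 41.0% ± 0.642 of the summed level, Junb 40.7% ± 0.515 and 43.2% ± 0.236, and Jun 13.7% ± 0.79 and 15.8% ± 0.413 (SD, n = 3, exact p = 0.1 for each).

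As a ratio to the summed JUN level, the summed FOS level was 0.117, 0.0878 and 0.103 in DMSO libraries, compared with 0.125, 0.121 and 0.122 under the inhibitor. JUN transcripts were thus in excess of FOS transcripts in each library. The groups did not overlap (exact permutation p = 0.1), but the direction was reversed when counts were not divided by length, with a difference of −0.0192 in place of 0.0197.

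**Figure D3:**
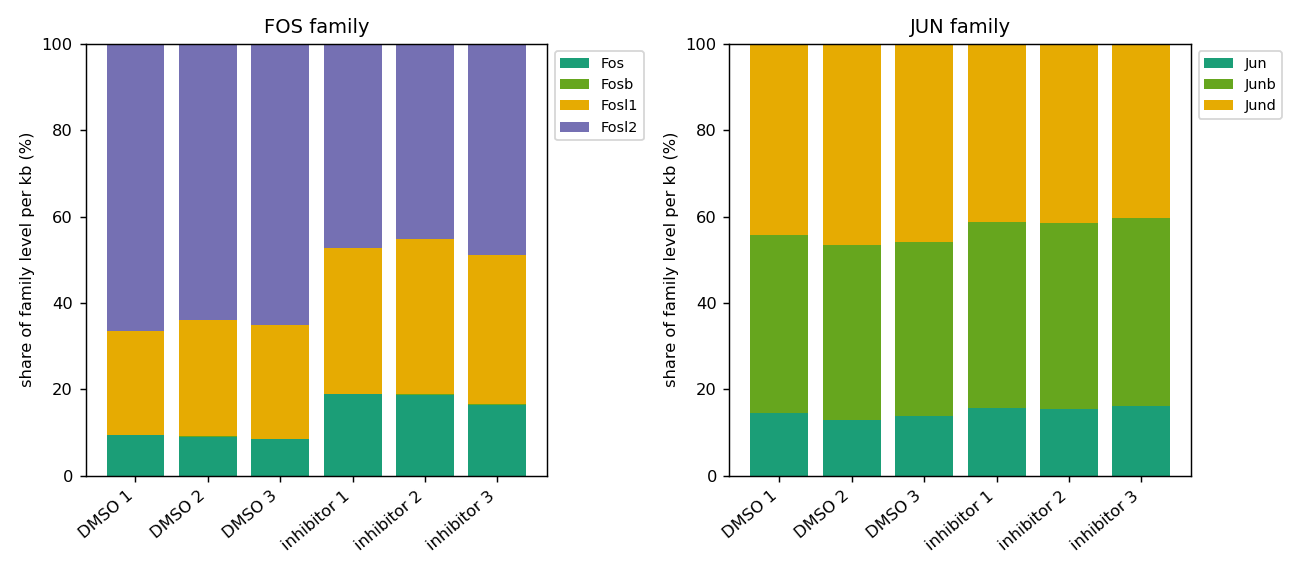
Share of each gene in the summed level per kb of its family in each library, as stacked bars from 0 to 100%, for the FOS genes (left) and the JUN genes (right). The Fosl2 share is 64.0% to 66.5% in the DMSO libraries and 45.1% to 49.0% in the inhibitor libraries, and the JUN shares differ by less than 5 percentage points between the group means.

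Levels of all 10 genes were also ordered per kb of merged exons. In each DMSO library Jund (133.8 ± 15.2 CPM per kb, SD, n = 3) was followed by Junb (119 ± 9.78), whose values overlapped it, and then by Ier3 (100.6 ± 5.09). In each inhibitor library Ier3 came first (188 ± 0.927), ahead of Junb (116 ± 3.38) and Jund (110.5 ± 5.49), which again overlapped. Below them stood Jun (40.2 and 42.5 CPM per kb) and Fosl2 (19.5 and 15.5) in all libraries. Egr2 (7.45 and 11.9) and Fosl1 (7.69 and 11.4) exchanged places between libraries, and Egr1 (5.04 and 6.49), Fos (2.68 and 5.93) and Fosb came last. Per kb of the longest transcript, Junb was first in the DMSO libraries (151.7 ± 12.4), and Ier3 was still first with the inhibitor.

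Of the zinc finger genes, Egr1 (ENSMUSG00000038418), which responds to the ERK pathway, was modestly higher. DMSO libraries had 24.3, 20.7 and 22.9 CPM, and inhibitor libraries 29.8, 31.4 and 26.0 CPM. The groups were separate, with the nearest values at 24.3 and 26.0 CPM. The difference was 0.37 (log2 scale, SE 0.093, 95% interval 0.15 to 0.58, edgeR adjusted p = 0.0113).

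Egr2, known in macrophages for its part in monocyte and alternative activation programmes, was uneven within the inhibitor group. DMSO libraries gave 509, 430 and 670 counts (28.1, 18.6 and 29.2 CPM). Inhibitor libraries gave 1243, 1268 and 543 counts (47.9, 50.7 and 22.5 CPM). Inhibitor replicate 3 thus lay among the DMSO libraries, at 0.457 of the mean of the other 2 inhibitor libraries. The log2 fold change of 0.68 (SE 0.3, 95% interval −0.00 to 1.36) did not pass (edgeR adjusted p = 0.0872), and without that library it was 0.97 (adjusted p = 0.00368). Adjusted p ranged from 0.00368 to 0.251 over all settings. Such a low value was rare: in that library 18 of 10371 genes with a mean of at least 5 CPM in the others (0.174%) lay below 0.5 times both other replicates, and in the other libraries 12 to 17 genes did. Egr2 (ENSMUSG00000037868) is at chromosome 10, 67535475 to 67542188, plus strand.

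Ier3 gave the smallest p of the 9 tested genes. DMSO libraries had 107, 118 and 117 CPM, and inhibitor libraries 212, 212 and 214 CPM, the latter with an SD of 1.05 CPM. The groups were far apart relative to that spread. The rise was 0.90 (log2 scale, SE 0.047, 95% interval 0.79 to 1.01, edgeR adjusted p = 2.79e-06), or 1.87-fold. Ier3 (ENSMUSG00000003541) lies at chromosome 17, 35821684 to 35822923, plus strand, and shares no exon with another gene.

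Other members of the wider AP-1 superfamily moved in both directions. Of 14 bZIP partners from the BATF, ATF, MAF and BACH groups, 4 were higher and 5 lower, where 24.9% and 26.5% of all genes tested were. Their median log2 fold change was 0.13, against 0.01 for all genes tested. Atf3, a stress-induced factor that pairs with JUN proteins and restrains cytokine genes, stood at 248 ± 27.9 CPM with DMSO and 548 ± 20.9 CPM with the inhibitor (SD, n = 3). Its log2 fold change of 1.14 (edgeR adjusted p = 1.08e-05) was close in size to that of Fos. Batf3, needed for cross-presenting dendritic cells, rose from 0.807 ± 0.0873 to 1.69 ± 0.216 CPM. Mafk, a small MAF protein, had a log2 fold change of 0.17 that lost its call under DESeq2 (adjusted p = 0.0634) and when any library other than DMSO replicate 2 was left out (0.0607 to 0.1). Among the genes that fell were the macrophage factor Maf (−0.47) and the small MAF gene Maff (−0.49). Without inhibitor replicate 3 these counts were 2 higher and 4 lower, and with library totals 5 and 4.

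Nab2, which encodes a corepressor that binds EGR1 and EGR2 and is itself an EGR target, moved opposite to Egr1. DMSO libraries averaged 56.6 ± 3.14 CPM of Nab2 and inhibitor libraries 35.3 ± 3.13 CPM (SD, n = 3), and it fell by 0.68 on the log2 scale (edgeR adjusted p = 0.000174). It was the 1 gene called of 3 tested in the list of other EGR genes and NAB corepressors, beside 51.5% of all genes tested. The median of that list was 0.10. With library totals 1 was higher and 1 lower. The related Nab1 stood at 89.6 ± 0.835 and 96.2 ± 3.46 CPM and was not called (adjusted p = 0.0824). Egr3 was at 0.51 and 0.547 CPM on average, and Egr4 had no count in any library.

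Other immediate early genes were also split, with 6 of 13 higher and 5 lower, beside 24.9% and 26.5% of all genes tested. Their median log2 fold change was −0.02 (0.09 with library totals). Gadd45b, which binds MAP kinase kinases and is induced by NF-kB, stood at 147 ± 12.2 and 343 ± 13.8 CPM (SD, n = 3) and rose by 1.22 on the log2 scale (edgeR adjusted p = 3.01e-06). Ier5 rose by 0.69 on the log2 scale. Ier2, a nuclear protein of the same response, moved in the other direction, from 33.2 ± 2.8 to 17.1 ± 1.09 CPM (−0.96, adjusted p = 4.36e-05), and Ier5l fell by 0.74. Atf3 and Maff, described above, are also on this list. Ier genes thus differed in direction among themselves, with Ier3 and Ier5 higher and Ier2 and Ier5l lower under each of the 3 scalings.

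**Figure D4:**
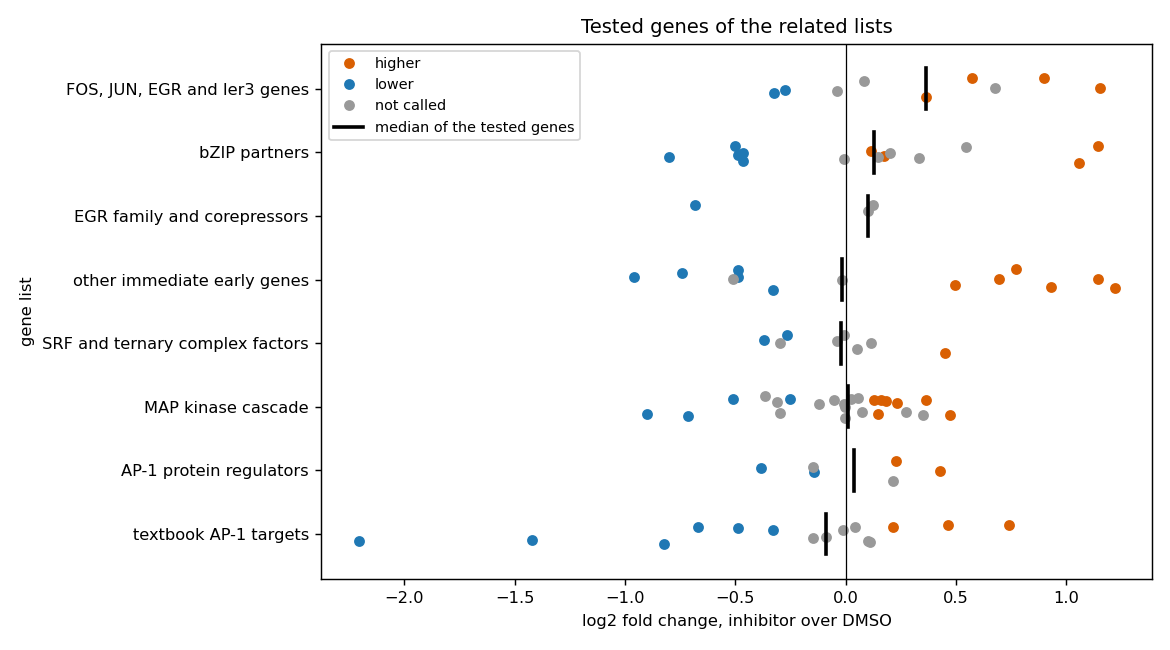
Log2 fold change (inhibitor over DMSO) of each tested gene in the FOS, JUN, EGR and Ier3 set and the 7 related lists, coloured by call (orange higher, blue lower, grey not called), with a black bar for the median of each list. Each list other than the EGR family has genes called on both sides of 0, with medians of −0.09 to 0.13 for the 7 related lists.

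Of 8 genes for serum response factor, its partners and CREB factors, which act upstream of AP-1, 1 was higher and 2 lower, where 24.9% and 26.5% of all genes tested were, and the median was −0.02 (0.09 with library totals). Srf stood at 82.7 ± 5.37 and 80.5 ± 3.82 CPM (SD, n = 3, adjusted p = 0.625). Elk3, a ternary complex factor that can repress, fell by 0.37 and the actin-regulated cofactor Mrtfa fell by 0.26 on the log2 scale, the latter not called with library totals (adjusted p = 0.0998). Crem was the gene called higher (0.45), and its call was lost under DESeq2 (adjusted p = 0.0529), without DMSO replicate 1 (0.0527) or 3 (0.119), and without inhibitor replicate 2 (0.108) or 3 (0.117). It was also lost with the replicate block (0.065) and with the GC content and length trend removed (0.0578).

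Among 24 tested MAP kinase cascade genes 7 were higher and 4 lower, with a median of 0.01, beside 51.5% of all genes tested that were called either way. Mapk9, the JNK2 gene, rose, at 35.4 ± 2.18 and 49.2 ± 2.27 CPM (SD, n = 3). The kinases Map2k3 and Map2k2, which activate p38 and ERK, had log2 fold changes of 0.36 and 0.23. The p38 beta gene Mapk11 fell from 11.3 ± 0.921 to 6.08 ± 0.558 CPM, Rps6ka4, which encodes the kinase MSK2 that phosphorylates CREB and histone H3, fell by 0.51, and Map3k1 fell by 0.25 (not called with library totals, adjusted p = 0.0763). Without inhibitor replicate 3 the list counted 3 higher and 4 lower. Of 6 genes whose proteins bind or degrade JUN, 2 were higher and 2 lower, beside 24.9% and 26.5% of all genes tested. The median of these 6 was 0.04. The higher genes were the ubiquitin ligase gene Itch (0.43) and Cops5 (0.23), and the lower ones included the ligase gene Cop1 (−0.14, adjusted p = 0.0448). The call of Cop1 was lost without any one library other than DMSO replicate 2, with library totals (−0.03), under DESeq2 (adjusted p = 0.0947), with the replicate block (0.0516), without the filter on low counts (0.0938) and with the GC content and length trend removed (0.12).

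Of 15 tested genes that textbooks name as AP-1 or EGR targets, 3 were higher and 6 lower, where 24.9% and 26.5% of all genes tested were. With library totals 5 of the 15 were higher and 5 lower. Their median log2 fold change was −0.09, and 0.02 with library totals. The macrophage elastase gene Mmp12 rose, at 2093 ± 137 CPM and 3497 ± 219 CPM (SD, n = 3), as did the urokinase receptor gene Plaur, at 297 ± 7.05 and 409 ± 5.93 CPM, and the collagenase gene Mmp13, at 43.1 ± 2.14 and 50.02 ± 1.93 CPM. The call of Mmp13 was lost without inhibitor replicate 2 (adjusted p = 0.0514) or 3 (0.0591). Ccnd1, cyclin D1, fell from 83.3 ± 7.36 to 18.1 ± 2.06 CPM (log2 fold change −2.20, edgeR adjusted p = 1.37e-06). The gelatinase gene Mmp9 fell by 1.42 on the log2 scale. Fibroblasts express several of these genes as well, and 7 of 9 stromal markers were lower here too, as given above. The part of the stromal cells was not tested.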

How the data were processed

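The authors deposited 1 table of counts, assumed here to be raw, with Ensembl genes in rows and libraries in columns. The submitters' processing notes name HISAT2, StringTie 1.3.0, edgeR and build mm10. Their roles, the read counter, the annotation release and strand use are not given in these sources. Symbols, positions, exon lengths and overlaps came from GENCODE release M21 of that build by Ensembl identifier, which matched 34267 of 34745 genes.

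Samples were grouped by title. In R 4.3.3, edgeR 4.0.16 (quasi-likelihood) was fitted to all 13815 genes left by filterByExpr (minimum count 10), with TMM scaling, pretreatment as the only factor and Benjamini-Hochberg adjustment over all genes. SE is the estimate's size divided by the root of F, and 95% intervals use the moderated degrees of freedom. Intervals on counts cover counting error only. For family shares the two-sided exact permutation test was used. The procedure was tested on simulated counts in which far fewer genes changed than were called here, in both directions. That test therefore does not bear on the choice of scaling. All 10 genes are described. From each of 7 related lists the up to 3 called genes with the smallest p in each direction are named. Srf, Col1a2, Pdgfra, Lum, Lyz2, Csf1r, Cd68, Itgax, Nab1, Egr3, Egr4 and the genes that overlap a described gene were added after their values were seen. Not every gene the rule picks is reported here. The genes and lists were chosen with earlier results of these data known.

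Alternatives tried were library totals, size factors by median of ratios, testing without the low-count filter, a minimum mean of 5 CPM, DESeq2 1.42.0, a replicate block, a threshold of 0.01, subtraction of the GC and length trend (mgcv 1.9.3), leaving out each library, and other length measures for the shares.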

Additional observations from a re-analysis of the deposited data

How the results depend on the processing

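Over the alternatives, Fos (log2 fold change 1.10 to 1.26), Fosl1 (0.54 to 0.68), Egr1 (0.30 to 0.47), Ier3 (0.85 to 1.01) and Fosl2 (−0.38 to −0.22) kept their direction and an adjusted p under 0.05. At the stricter threshold of 0.01 Egr1 (adjusted p = 0.0113) and Jund (0.0202) were not called. The number of the 9 tested genes called lower was 1 in place of 2 with library totals, at the threshold of 0.01 and with the GC content and length trend removed, and 1 to 2 when libraries were left out in turn. In each case it was Jund that lost its call, in the last case without inhibitor replicate 3. The number of all genes called higher was 2257 in place of 3446 at the threshold of 0.01. Junb reversed to 0.073 with library totals and 0.044 with the GC content and length trend removed, and ranged from −0.09 to 0.027 when libraries were left out in turn. The cause was not tested. The FOS to JUN ratio reversed (−0.0192) when counts were not divided by length. In that form Fosl2, which fell and has the longest exons, has more weight in the FOS sum.

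Deviations of same-numbered libraries from their group means correlated at r of −0.0337, −0.00297 and 0.0242 over genes. Those of differently numbered libraries of the 2 groups correlated at −0.0378 to 0.0409. The labels do not say what a shared number means, and correlations this weak cannot show whether such libraries shared an animal, culture or day. With the replicate number as a block, 3215 genes were higher and 3510 lower, and 4 and 2 of the genes described. Depth limits Fosb, with 32 counts in all.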
